A study of Mus musculus with 4 samples.

Results

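The genes described here encode 8 enzymes that make or interconvert asparagine, proline, alanine, aspartate, glutamate and glutamine: Asns, Pycr1, Aldh18a1, Gpt2, Got1, Got2, Glul and Glud1. They were taken by symbol from a gene table of 15768 genes, and all 8 were among the 12222 genes that passed the filter on low counts. The cells were JoMa1.3, a mouse neural crest line that is kept growing by a conditional Myc transgene and that was cultured in medium holding chick embryo extract, EGF and FGF. A pool of siRNAs against Stk11, the gene for the kinase LKB1, was given to 2 cultures (the Lkb1 siRNA group), and a pool of non-targeting siRNAs to 2 others (the control siRNA group), each at 60 nM, and RNA was taken 72 h later. The labels name a pair of transfection reagents without saying which culture received which, and they place 1 culture of either group in batch 1 and 1 in batch 2.

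These enzymes make, use or pass on glutamate, glutamine and the amino acids built from them. Glud1 encodes mitochondrial glutamate dehydrogenase, which joins ammonia to 2-oxoglutarate or releases it, and Glul encodes glutamine synthetase, which adds a second nitrogen to glutamate. The aminotransferases Got1 (cytosol) and Got2 (mitochondria) pass the nitrogen of glutamate to oxaloacetate to give aspartate, and Gpt2, the mitochondrial alanine aminotransferase, passes it to pyruvate to give alanine. Asns, asparagine synthetase, moves the amide of glutamine onto aspartate. Aldh18a1 reduces glutamate to the precursor of proline, and Pycr1 completes proline in mitochondria. In mammalian cells Asns, Pycr1, Aldh18a1 and Gpt2 are known targets of ATF4, the transcription factor that is translated when amino acids run short, and ATF4 binds with C/EBP partners to a composite site that carries the letters TGATGNAA.

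That motif was searched on both strands in the RefSeq promoter windows of mouse build GRCm38.p6, which run from 250 bases before to 50 bases after each gene's start. All 8 genes had a window, and 3 of them held the motif: Asns, Pycr1 and Got1. It was present in 3.97% of all 32851 windows and in 2.2% of the 12516 windows of genes tested here. The following stretches, read along the strand of each gene and ending no later than its start, are shown because the genes they belong to include the pair with the most negative changes; the match is in capitals. The Asns stretch lies at chr6:7693210-7693262 on the minus strand, with the match beginning 23 bases before the start.
Asns: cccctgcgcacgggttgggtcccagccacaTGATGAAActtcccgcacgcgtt
The Pycr1 stretch lies at chr11:120643814-120643881 on the minus strand, with the match beginning 103 bases before the start.
Pycr1: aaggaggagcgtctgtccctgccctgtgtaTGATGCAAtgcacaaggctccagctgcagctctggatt
The Got1 stretch lies at chr19:43524670-43524737 on the minus strand, with the reverse complement of the motif (TTNCATCA) beginning 102 bases before the start.
Got1: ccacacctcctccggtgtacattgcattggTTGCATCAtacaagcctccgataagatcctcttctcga
The windows of Aldh18a1, Gpt2, Got2, Glul and Glud1 did not hold these letters.

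The 4 libraries held between 17426719 and 19324675 gene counts. Stk11 was at 52.7 and 52.1 FPKM with control siRNA and at 36.3 and 36.9 FPKM with Lkb1 siRNA (batch 1 and batch 2; FPKM is the number of fragments scaled by transcript length and by library size). This decrease passed the test (log2 fold change -0.55 ± 0.0659 SE, edgeR adjusted p of 0.0378, and 1.28e-22 with batch as a block). Of 9 neural crest markers, 7 were measured and summed to between 127 and 137 FPKM in every library, led by Snai2, while Ngfr stayed under 1 FPKM; Sox10 and Foxd3 were not analysed here. The glial marker Gfap stayed under 1 FPKM. Smooth muscle markers moved with the groups: Acta2 and Tagln made up nearly all of a summed 408 and 382 FPKM with control siRNA against 327 and 307 FPKM with Lkb1 siRNA, with Cnn1 and Myh11 near 0. The neuronal Tubb3, at 7.75 and 7.71 FPKM against 11.6 and 8.24, and the macrophage marker Cd68, at 0.95 and 0.92 FPKM against 1.51 and 1.14, were higher in both Lkb1 siRNA libraries, while the other neuronal markers and Ptprc were not analysed here. The part of these markers in the results below was not tested. In bulk RNA, fewer cells of a kind and less RNA per cell cannot be told apart.

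In the control siRNA cells the 8 genes covered a wide range of levels per length. Got2 was the highest, at 284 and 258 FPKM in batch 1 and batch 2, and its range over the 4 libraries lay above that of every other gene of the group. Asns followed at 143 and 129 FPKM, then Glud1 at 90.8 and 90.5 FPKM, Aldh18a1 at 88.4 and 80.3 FPKM, and Glul at 55.1 and 55.7 FPKM. Got1 stood at 45.2 and 39.5 FPKM, Gpt2 at 30.7 and 30.4 FPKM and Pycr1 at 17.9 and 20.4 FPKM. Averaged over the 4 libraries, Got2 was higher than 97.4% and Pycr1 than 57% of the genes tested. The order was the same in each library, although the range of Asns over the libraries overlapped that of Glud1, and the range of Glud1 overlapped that of Aldh18a1. The mitochondrial aspartate aminotransferase gene was between 6.28 and 7.32 times as high as the cytosolic one, per length, in every library.

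**Figure D1:**
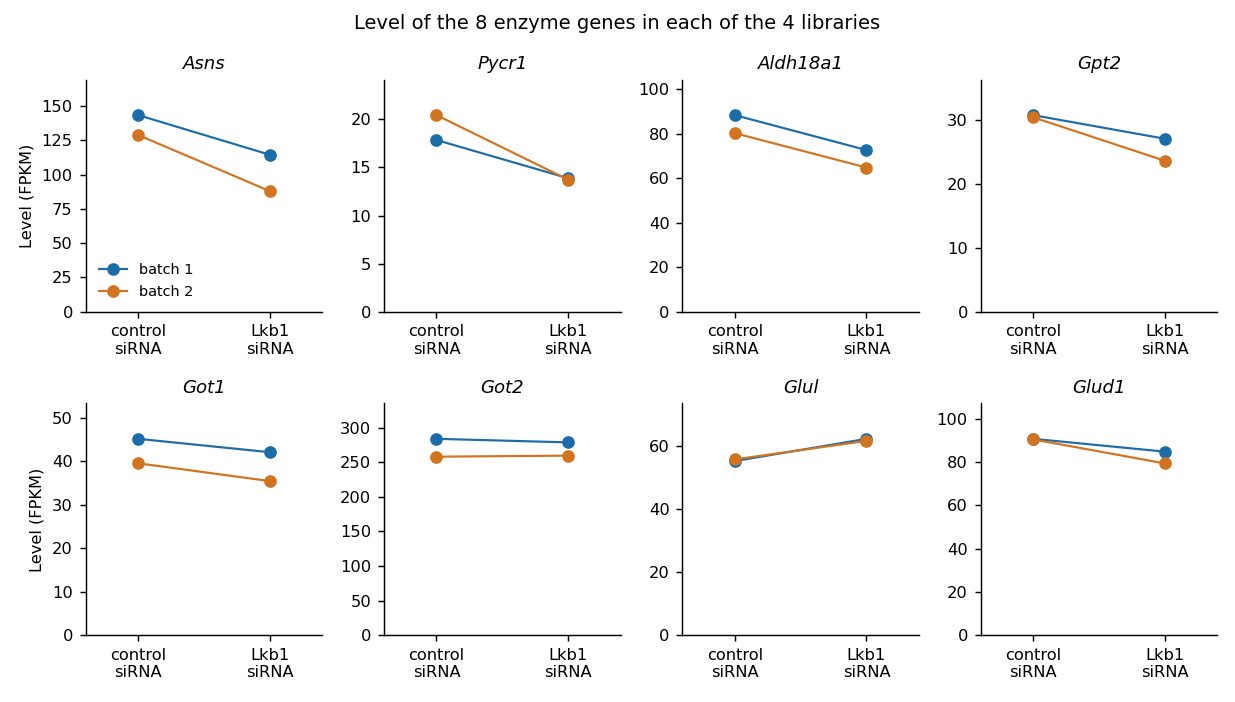
Level of each gene in FPKM (y axis, from 0) in the control siRNA and Lkb1 siRNA libraries, with a line joining the libraries of a batch. Asns, Pycr1, Aldh18a1, Gpt2 and Glud1 were lower and Glul was higher in both Lkb1 siRNA libraries than in either control siRNA library, while Got1 and Got2 overlapped. Of all genes tested, 21.4% were set apart in this way as lower and 21.2% as higher in CPM.

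After Lkb1 siRNA, the 4 enzymes that are known ATF4 targets were lower in both batches. CPM here is reads scaled to the library's total after that total was adjusted by TMM, a normalisation between libraries. The changes in mean CPM of these 4 lay between -29.4% (Pycr1) and -18.9% (Gpt2), and Glul was 8.9% higher. By log2 CPM, 7 of the 8 genes were lower in both batches and 1 was higher in both, against 33.4% and 33.8% of all genes tested. Got2 is among the 7 by a batch 2 change of only -0.018. Its FPKM in that batch was slightly higher with Lkb1 siRNA (259.5) than with control siRNA (258). None of the 8 genes passed in the test without a block, edgeR's quasi-likelihood test adjusted over all genes. There, 0.0491% of all genes passed as lower and 0.0327% as higher. By edgeR 5 of the 8 had an unadjusted p under 0.05, all lower, against 676 lower and 686 higher of the 12222 genes tested. DESeq2 called 1 as lower, Asns (adjusted p = 0.0341), against 0.263% of genes lower and 0.136% higher by DESeq2. In the fit that takes batch as a block (the blocked fit), which compares the groups within batches, 6 of the 8 fell and none rose, against 6.99% of all genes lower and 6.59% higher. Those 6 were Asns, Pycr1, Aldh18a1, Gpt2, Got1 and Glud1. The median log2 fold change over the 8 genes was -0.24, against 0.00 over all genes tested. The blocked fit leaves 1 degree of freedom to each gene and borrows its error from all genes, so its small p-values rest on that shared estimate. DESeq2 with the same block called 2 of these 6, Asns and Aldh18a1 (adjusted p = 3.18e-06 and 6.87e-04), against 1.34% of genes lower and 0.736% higher, and gave Pycr1 no adjusted p.

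Asparagine synthetase had the second most negative change of the 8. Asns (gene ID 27053) was at 143 FPKM in batch 1 and 129 in batch 2 with control siRNA, and at 114.5 and 88 FPKM with Lkb1 siRNA. Both Lkb1 siRNA libraries were below both control siRNA libraries, a separation that 21.4% of all genes tested showed in this direction in CPM. Its mean CPM was 230.1 ± 20.3 with control siRNA and 166.6 ± 31.3 with Lkb1 siRNA (SD, n = 2 in each, here and below). The log2 fold change was -0.47 ± 0.118 SE (edgeR adjusted p of 0.216, blocked 1.73e-19). The size of the change differed between the batches, at -0.37 in batch 1 and -0.58 in batch 2. In fits without a block it was -0.28 without Lkb1 siRNA replicate 2 and -0.67 without Lkb1 siRNA replicate 1. Leaving 1 library out makes the groups unequal in batch, so these 2 values mix the siRNA and batch differences. Nearly all Asns counts, between 99.4 and 100% in a library, were assigned to the transcript NM_012055.

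The genes of proline synthesis were lower as well. Pycr1 (209027), the last enzyme of the route, was at 17.9 and 20.4 FPKM with control siRNA and at 13.9 and 13.7 FPKM with Lkb1 siRNA, so the groups did not overlap and the Lkb1 siRNA libraries lay close together. Its mean CPM was 36.4 ± 2.86 and then 25.7 ± 0.562, and its log2 fold change, -0.50 ± 0.0937 SE, was the most negative of the 8 (edgeR adjusted p of 0.115, blocked 1.16e-08). Its change was -0.39 in batch 1 and -0.60 in batch 2, and it passed without the filter on low counts (edgeR adjusted p = 0.0385). With 1 library left out, its edgeR adjusted p was 0.00374 and 0.0488 without control siRNA replicate 1 and 2, and 0.0656 and 0.156 without Lkb1 siRNA replicate 1 and 2. In each of these fits the lone library of a group is assumed to vary like the other group, here for the first pair the closely matching Lkb1 siRNA libraries, and calls over all genes were also more numerous. With the fewest reads of the 8, between 458 and 740 per library, Pycr1 also had the largest SE in the blocked fit, 0.0771.

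Aldh18a1 (56454), which makes the proline precursor, was at 88.4 and 80.3 FPKM with control siRNA and at 72.7 and 64.8 FPKM with Lkb1 siRNA. The groups did not overlap, and the change was the same in both batches to 2 decimals, -0.33. The mean CPM was 276.3 ± 22.5 and then 219.7 ± 18.4 (log2 fold change -0.33 ± 0.0846 SE, edgeR adjusted p of 0.226, blocked 1.65e-09). Pycr3, the cytosolic reductase for the last step, was named after its values were seen and passed in neither fit. It was at 38 and 33.4 FPKM with control siRNA and at 40.3 and 36.8 FPKM with Lkb1 siRNA (log2 fold change 0.07 ± 0.0976 SE, edgeR adjusted p of 0.835, blocked 0.567). Per length, Pycr1 was at 0.47 and 0.613 of the level of Pycr3 in the control siRNA libraries and at 0.344 and 0.373 of it in the Lkb1 siRNA libraries; the ratio was not tested, since 2 against 2 libraries cannot give an exact permutation p below 0.333.

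Aldh18a1 is spliced in forms that differ by 6 bases at the end of its coding exon 5, coding positions 712 to 717 counted from the A of the start codon (chr19:40574211-40574216, minus strand, GRCm38). The longer form, NM_019698, carries 2 codons more than NM_153554, and in mammals the shorter enzyme is the one known to be inhibited by ornithine. The junction of both is shown with the extra bases in capitals, from the GENCODE transcripts matched by their RefSeq IDs.
NM_019698: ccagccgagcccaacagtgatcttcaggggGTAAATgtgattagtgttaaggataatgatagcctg
NM_153554: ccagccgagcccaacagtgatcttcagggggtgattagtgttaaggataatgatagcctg
The longer form held most of the estimated counts. It was at 80.9 and 71.3 FPKM with control siRNA and at 65.7 and 54.8 FPKM with Lkb1 siRNA, with no overlap between the groups. The shorter form was at 7.14 and 8.59 FPKM with control siRNA and at 6.55 and 10.1 FPKM with Lkb1 siRNA, lower in batch 1 and higher in batch 2. Its share of the gene's estimated counts was 8.07% and 10.7% with control siRNA and 9% and 15.5% with Lkb1 siRNA, so that it was larger after Lkb1 siRNA in both batches while the groups overlapped. Neither transcript passed (edgeR on transcripts, log2 fold change -0.38, SE 0.134 and adjusted p = 0.753 for NM_019698, and 0.03, SE 0.258 and adjusted p = 1 for NM_153554).

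**Figure D2:**
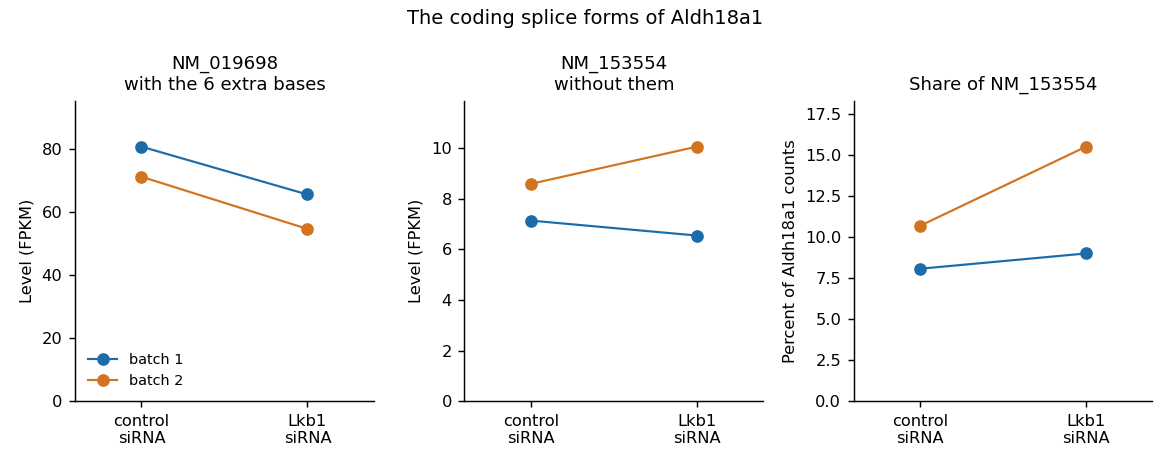
FPKM of the Aldh18a1 transcripts with (left) and without (middle) the 6 extra coding bases, and the percentage of the gene's estimated counts given to the shorter form (right), per library with a line joining each batch. The longer form was lower in both Lkb1 siRNA libraries, and the share of the shorter form reached 15.5% in the Lkb1 siRNA library of batch 2.

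Gpt2 (108682), the alanine aminotransferase of mitochondria, was at 30.7 and 30.4 FPKM with control siRNA and at 27 and 23.6 FPKM with Lkb1 siRNA. The control siRNA libraries lay close together and above both Lkb1 siRNA libraries. Its mean CPM was 121.4 ± 2.63 and then 98.4 ± 10.3 (log2 fold change -0.30 ± 0.0819 SE, edgeR adjusted p of 0.254, blocked 2.82e-07). The change was -0.22 in batch 1 and -0.39 in batch 2. Without Lkb1 siRNA replicate 2 the fit gave -0.20, with the groups unequal in batch. The transcript XM_036153711 held between 63.8 and 67% of the gene's estimated counts in the 4 libraries. The cytosolic alanine aminotransferase gene Gpt was under 2 FPKM throughout, and its log2 fold change of 0.36 had an SE of 0.288.

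The aspartate aminotransferases had smaller changes. Got1 (14718), the cytosolic enzyme, was at 45.2 and 39.5 FPKM with control siRNA and at 42.1 and 35.5 FPKM with Lkb1 siRNA, and the groups overlapped because the batch 1 library with Lkb1 siRNA exceeded the batch 2 library with control siRNA. Its log2 fold change was -0.17 ± 0.102 SE (edgeR adjusted p of 0.573, blocked 0.0325, and 0.0641 once the trend with gene length was also removed). The change was -0.15 in batch 1 and -0.18 in batch 2. With 1 library left out it was -0.04 (Lkb1 siRNA replicate 2), -0.05 (control siRNA replicate 1), -0.27 (control siRNA replicate 2) or -0.29 (Lkb1 siRNA replicate 1). Each of these fits had no block and left the groups unequal in batch, so its value mixes the siRNA and batch differences. Got2 (14719), the mitochondrial enzyme, was at 284 and 258 FPKM with control siRNA and at 279 and 259.5 FPKM with Lkb1 siRNA, so both groups covered the same range. Its mean CPM was 574.1 ± 46.2 and then 555.8 ± 29.4 (log2 fold change -0.05 ± 0.077 SE, edgeR adjusted p of 0.859, blocked 0.577). It had the most reads of the 8, at least 10032 per library.

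Glutamine synthetase and glutamate dehydrogenase differed in direction. Glul (14645) was at 55.1 and 55.7 FPKM with control siRNA and at 62.2 and 61.5 FPKM with Lkb1 siRNA. Both Lkb1 siRNA libraries lay above both control siRNA libraries, as for 21.2% of all genes tested, and the replicates of each group were nearly equal. The mean CPM was 141 ± 0.902 and then 153.5 ± 1.6, and the log2 fold change of 0.12 ± 0.0644 SE passed neither test (edgeR adjusted p of 0.513, blocked 0.0752). Glud1 (14661) was at 90.8 and 90.5 FPKM with control siRNA and at 84.8 and 79.4 FPKM with Lkb1 siRNA, with no overlap. It fell in the blocked fit (log2 fold change -0.18 ± 0.0484 SE, edgeR adjusted p of 0.00391 there and 0.382 without the block). Within a library, Asns stood at 2.6 and 2.32 times the level of Glul per length with control siRNA and at 1.84 and 1.43 times with Lkb1 siRNA, and Glud1 at 1.65 and 1.63 times and then at 1.36 and 1.29 times; these ratios were not tested.

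**Figure D3:**
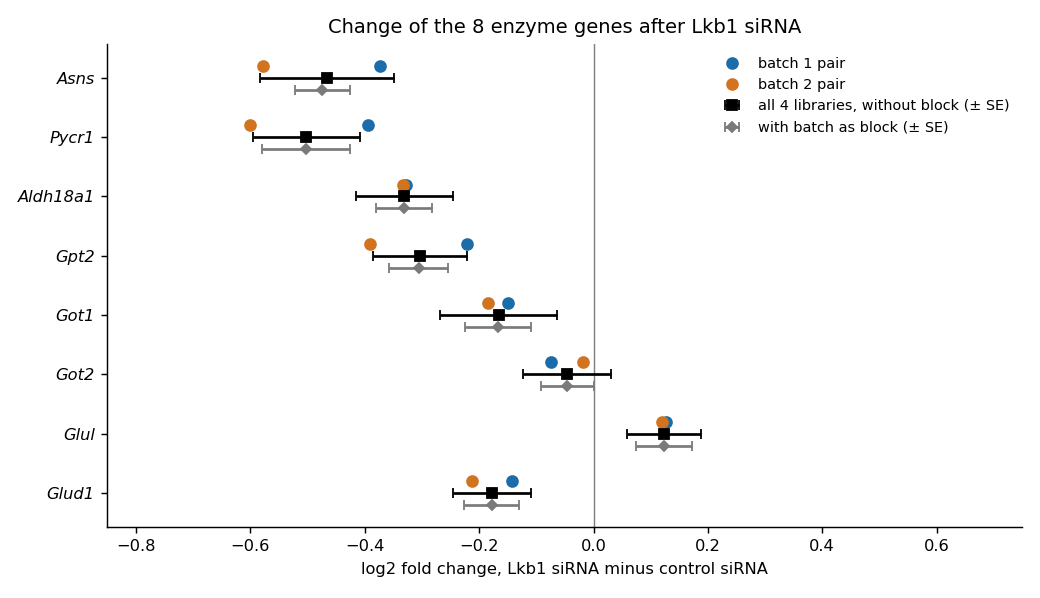
Log2 fold change of the 8 genes, Lkb1 siRNA minus control siRNA (x axis). Black squares with bars show the fit without a block ± SE, grey diamonds the fit with batch as a block ± SE, and coloured points the change within each batch; the 4 ATF4 target enzymes lay between -0.50 and -0.30 and Glul at 0.12.

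The batches themselves differed for several of these genes. In the fit with terms for batch and siRNA, batch 2 was lower than batch 1 for Asns (log2 difference -0.28, SE 0.0487, edgeR adjusted p = 1.35e-06), Got1 (-0.23, SE 0.0575, 0.00119), Aldh18a1 (-0.17, SE 0.0485, 0.00767) and Got2 (-0.14, SE 0.0465, 0.032), against 6.62% of all genes lower and 6.3% higher. The batch difference of Got1 and of Got2 was larger in size than their difference between the siRNA groups. Whether the response to Lkb1 siRNA differed between batches could not be tested, since each batch held 1 library of either group.

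The regulators of the amino acid response were set beside these enzymes. Trib3, a pseudokinase induced by ATF4, and Atf5, a related transcription factor, fell in the test without the block (log2 fold changes of -1.09 ± 0.109 and -0.62 ± 0.0796 SE, edgeR adjusted p of 0.026 and 0.0378, blocked 5.24e-38 and 1.64e-18). Ddit3, the stress factor CHOP, was at 40 and 48.2 FPKM with control siRNA and at 27.7 and 28.2 FPKM with Lkb1 siRNA (edgeR adjusted p of 0.116, blocked 2.12e-10). Atf4 itself was at 227 and 217 FPKM with control siRNA and at 215 and 184 FPKM with Lkb1 siRNA, without overlap (log2 fold change -0.21 ± 0.082 SE, edgeR adjusted p of 0.392, blocked 4.15e-04). ATF4 is controlled mainly through translation, and its protein was not measured here.

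The 5 genes whose profile over the 4 libraries was nearest to that of Asns were Fbln5, an elastic fibre protein, Flt1, a VEGF receptor, Cth, which makes cysteine from cystathionine, the transcription factor Myc, and Gask1b. Likeness was the root mean square difference of log2 CPM centred on each gene's mean, over 4 libraries and 9235 candidate genes, and these genes lay between 0.053 and 0.065 from Asns. Because they were chosen for this likeness, a decrease like that of Asns followed from the choice. The p-values given for them below are therefore no separate evidence. Cth was at 27.6 and 24.5 FPKM with control siRNA and at 20.5 and 17.8 FPKM with Lkb1 siRNA (log2 fold change -0.47 ± 0.106 SE, edgeR adjusted p of 0.182, blocked 2.69e-08). Myc was at 23.4 and 21.2 FPKM with control siRNA and at 20.1 and 15.9 FPKM with Lkb1 siRNA (log2 fold change -0.35 ± 0.117 SE, edgeR adjusted p of 0.344, blocked 2.05e-05), and counts of Myc may include the transgene of the line. Among the enzymes described here Aldh18a1 was nearest to Asns, at 0.105, then Gpt2 at 0.115, and Glul was farthest at 0.331. Aldh18a1 stood at rank 25 of likeness among the candidates, and Gpt2 at rank 30.

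The surrounding pathways were read from 4 lists of 48 genes that make, use or carry the same amino acids, 43 of them present in the table and 36 past the filter. None passed without the block, and DESeq2 called 0. At an unadjusted edgeR p under 0.05, 1 of the 36 was higher and 2 were lower. Over the 12222 genes tested, 686 were higher and 676 lower at that p. With the block 4 rose and 2 fell, that is 11.1% and 5.56% of the 36, against 6.59% and 6.99% of all genes, and their median log2 fold change was -0.03.

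Among 8 asparagine and aspartate genes tested, 6 had a lower mean and 1, Asrgl1, fell with the block. Asrgl1 encodes an asparaginase that frees aspartate, and it was at 8.98 and 8.92 FPKM with control siRNA and at 6.8 and 7.27 FPKM with Lkb1 siRNA (log2 fold change -0.38 ± 0.111 SE, edgeR adjusted p of 0.282, blocked 0.00291). The mitochondrial malate dehydrogenase Mdh2, partner of Got2 in the malate-aspartate shuttle, had a log2 fold change of -0.10 (SE 0.0818), and the aspartoacylase Aspa one of 0.23 (SE 0.199); neither passed in either fit. Of 9 genes of proline, ornithine and arginine metabolism 5 had a lower mean, and the enzymes of proline breakdown went in opposite directions. Prodh, proline dehydrogenase, was barely expressed, at 1.37 and 1.5 FPKM with control siRNA and at 0.95 and 0.65 FPKM with Lkb1 siRNA (log2 fold change -0.76 ± 0.277 SE, edgeR adjusted p of 0.358, blocked 0.0351). Aldh4a1, which turns the intermediate of proline breakdown into glutamate, was at 22.4 and 30 FPKM with control siRNA and at 28.2 and 34.6 FPKM with Lkb1 siRNA, where the groups overlapped and the batches stood apart (log2 fold change 0.23 ± 0.13 SE, edgeR adjusted p of 0.55, blocked 6.65e-04). Oat, ornithine aminotransferase, had a log2 fold change of -0.07 (SE 0.0651).

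In the list of glutamate, glutamine and alanine genes 10 were tested, 6 with a lower mean, and 1 rose with the block. Kyat3, a kynurenine aminotransferase, had a log2 fold change of -0.22 (SE 0.117) and passed in neither fit. Of the 9 glutamine amidotransferases, which like Asns spend the amide of glutamine, 5 had a higher mean, and 2 of the purine route rose with the block. Ppat, the first enzyme of purine synthesis, was at 26.8 and 21.7 FPKM with control siRNA and at 28.9 and 28.4 FPKM with Lkb1 siRNA (log2 fold change 0.20 ± 0.101 SE, edgeR adjusted p of 0.496, blocked 0.00145). Its change was 0.06 in batch 1 and 0.36 in batch 2, where the control siRNA library was the lowest of all. Pfas, a later enzyme of that route, changed by 0.19 ± 0.0998 SE on the log2 scale (edgeR adjusted p of 0.522, blocked 0.0078), and Gfpt1, of the hexosamine route, had a log2 fold change of -0.08 (SE 0.065). The median log2 fold change of this list was 0.05.

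**Figure D4:**
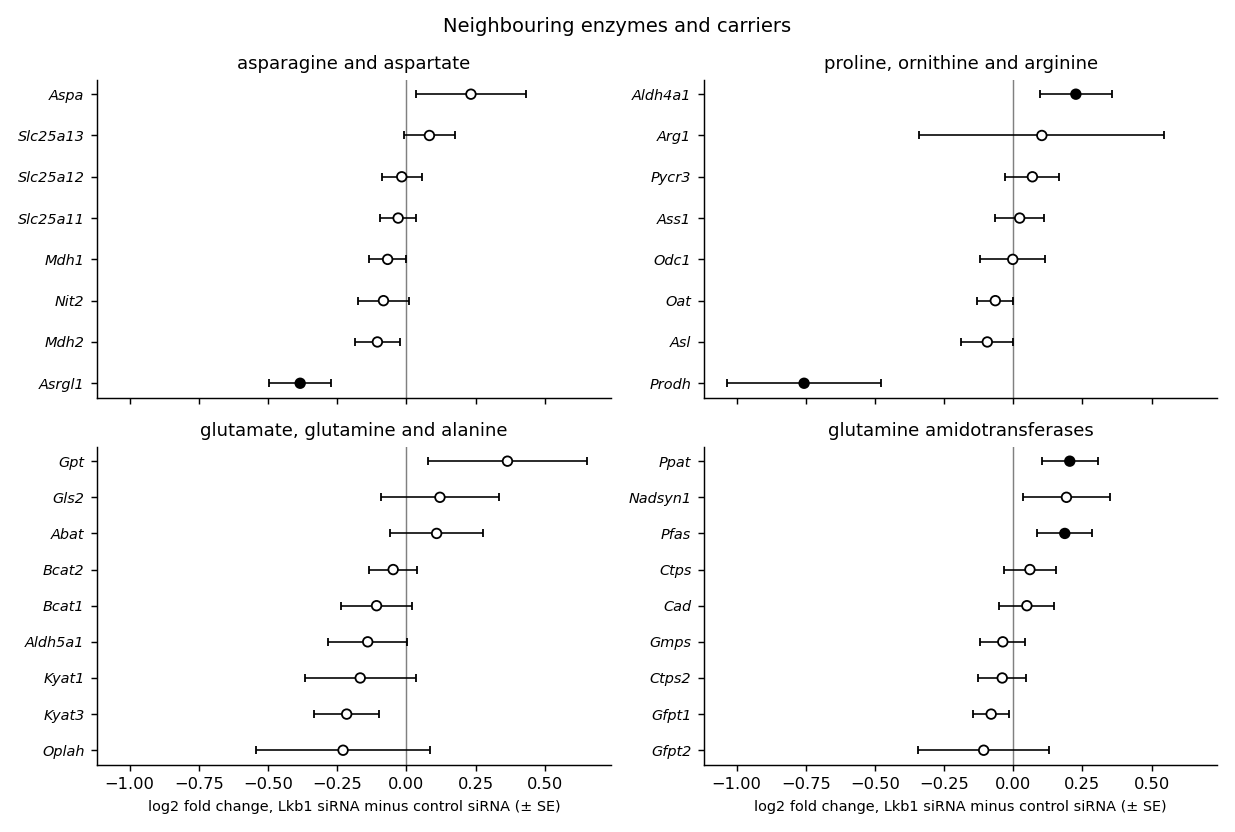
Log2 fold change ± SE in the fit without a block (x axis, Lkb1 siRNA minus control siRNA) for 34 of the 36 tested genes of the 4 neighbouring lists; filled points passed in the fit with batch as a block. Asrgl1 and Prodh were lower and Aldh4a1, Ppat and Pfas higher among the filled points.

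The 8 genes had 18 transcripts listed, 16 of which were tested, and Got1, Got2, Glul and Glud1 had 1 transcript each. No transcript of these genes passed with edgeR (lowest adjusted p = 0.687 without the block and 0.925 with it); 3 had an unadjusted p under 0.05, against 6.75% of the 34279 transcripts tested, of which 0% passed in either direction. The common coefficient of variation was 70% over transcripts against 6.39% over genes, so the transcript tests were the less precise. The main Pycr1 transcript, NM_001348222, held between 72.2 and 78.4% of the gene's estimated counts, and its log2 fold change was -0.59 (SE 0.12).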

How the data were processed

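RNA-seq libraries of 2 control siRNA and 2 Lkb1 siRNA cultures of JoMa1.3 cells were read as 150 bp pairs. Per the submitters' processing notes, HISAT2 2.0.4, Bowtie2 2.2.5 and RSEM 1.2.8 were used with build GRCm39, with no role or order given; the annotation release is not given in the sources used here. The authors deposited expected counts (estimated counts, of which 5.73 to 5.97% per library were not whole in the gene table) and FPKM, per the file headers; 16 further per-sample columns were not used. Doubled decimal points in 14 gene and 31 transcript cells were read as single points.

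Counts were rounded and tested with edgeR 4.0.16 (R 4.3.3; TMM, filter with minimum count 10, robust quasi-likelihood F-test, Benjamini-Hochberg over all genes, threshold 0.05); log2 fold changes are Lkb1 siRNA minus control siRNA, SE come from the F statistic, and changes per batch are differences of log2 CPM. DESeq2 1.42.0 and limma 3.58.1 were alternatives. The labels give the batch that pairs the libraries; deviations from group means of same-batch libraries correlated at 0.259, and the blocked value stands beside each gene result where it changes the call. The labels do not say whether cultures were independent, so p-values measure the spread between these libraries. The deposited gene counts of all 8 genes were whole in every library; Got2 and Glud1 have pseudogenes in RefSeq, whose reads could be mixed with theirs. Promoters came from RefSeq GRCm38.p6 and coding bases from GENCODE on GRCm38, and no coordinates were converted. The genes, lists and motif were chosen with earlier results of these data known. Named outside the members were Stk11, 4 regulators, the cell type markers and up to 3 genes with the smallest p per list. The 5 genes nearest to Asns with at least 10 CPM were also named, and Pycr3 was added after its values were seen. Values of some listed genes are not reported here.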

Additional observations from a re-analysis of the deposited data

How the results depend on the processing

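Over 15 alternatives for each of the 8 genes, 97 of 120 values kept their direction and their side of the threshold, 1 kept its direction but had no adjusted p (Pycr1 by DESeq2 with the block), 20 passed where the main test did not, and 2 changed sign, both of Got2, whose log2 fold change lay between -0.128 and 0.037 with 1 library left out (0.037 without control siRNA replicate 1, 0.008 without the second Lkb1 siRNA library). Of the 8 genes, those passing as lower numbered 0 in the main test, 6 with batch as a replicate block, 5 with the block and the length trend removed, 2 by DESeq2 with the block, 1 by DESeq2 without it, 1 without the filter on low counts, and between 0 and 2 when 1 library was left out. Neighbouring genes passing as higher and lower numbered 4 and 2 in the blocked fit, whether or not the length trend was removed, and between 0 and 1 as higher with 1 library left out. Over all genes, 4 were higher and 6 lower in the main test. These counts became 806 and 854 with the block, 726 and 798 once the length trend was also removed, 2 and 1 with that trend removed alone (11710 genes), 2 and 1 with library size alone, 13 and 32 with at least 1 count in any library, 2 and 2 among genes averaging 5 CPM or more, 16 and 31 by DESeq2, 44 and 80 by DESeq2 with the block, and 0 and 0 by limma on log2(FPKM + 1) or log2(FPKM + 0.1). Without 1 library they lay between 24 and 136 higher and between 42 and 143 lower, in fits that assume the lone library of a group to vary like the other group. Such fits also leave the groups unequal in batch, so their values mix the siRNA and batch differences. Got2 changed sign in 2 of them, while its log2 CPM changes within batches were -0.07 and -0.02. The cause of the shifts between alternatives was not tested. No transcript of the 8 genes passed under any alternative run on that table.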
